A study of Mus musculus with 6 samples.

Results

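Tfrc, the gene of the transferrin receptor, was followed in mouse liver before birth and in the adult. It is 1 of 15 genes that the array names by a RefSeq mRNA accession, and it was read by 1 probe printed at 20 places on each array. The gene was chosen because its processed signal differed between the stages in these same arrays, so its levels and their difference are given as a description, with no test. The study compared 3 arrays of fetal liver at embryonic day 18 with 3 arrays of adult liver at 2 months. All animals were C57/BL6 mice labelled male, and no treatment was given to either group. The replicates of each stage are described as separate experiments, and whether livers were pooled, above all fetal ones, is not stated in the labels. RNA cleared of ribosomal RNA was amplified with random primers, labelled with Cy3 and put on a one-colour Agilent platform that Arraystar built for lncRNAs and coding transcripts of the mouse.

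The transferrin receptor is a dimeric protein of the cell surface that binds iron-loaded transferrin from the plasma, carries it into the cell by endocytosis and returns to the surface once the iron has been released. Red cell precursors, which need iron for heme, carry it in large amounts, and dividing cells of many kinds carry it too. The fetal liver is a site of red cell production, which moves to the bone marrow around birth, while the adult organ is built mainly of hepatocytes, which store iron. The messenger RNA itself is stabilised when iron is scarce, through iron-responsive elements that bind the iron regulatory proteins. In whole tissue, more cells of a type and more RNA per cell cannot be told apart.

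The array measured RNA and not the promoter. A short stretch of the promoter region is shown because it holds, side by side, letters of the kinds bound by hypoxia-inducible factors, Ets proteins and proteins of the CREB and AP-1 families, classes of factor known to act on transferrin receptor genes. The stretch is chr16:32608890-32608919 on the plus strand of GRCm38.p6, from RefSeq, in which Tfrc has 2 annotated starts, at 32608896 and 32609122. It spans the first start, so that its first 6 bases lie upstream of that start, and it ends 203 bases before the second. Capitals mark ACGTG at the left and, at the right, GGAAGT running into TGACGT, with which it shares 1 base.
Tfrc promoter stretch: gtgtACGTGcggaaGGAAGTGACGTagatc

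Windows from 250 bases before to 50 after each annotated start were searched on both strands. ACGTG was held by 19.6% of the 32817 windows in the RefSeq table, GGAAGT by 23.8% and TGACGT by 7.51%. Both Tfrc windows held all 3 motifs, as did 0.911% of all windows, and these windows overlap in the stretch shown. Neither Tfrc window held the GATA-type letters AGATAA or TGATAA, which were found in 11.2% and 9.06% of windows. A match is a run of letters and not a measured binding site, and a missing match says nothing about a factor. The sequence of the array probe was not used here. The array accession, NM_011638, matched the RefSeq table without its version, and because the array grid names another build, mm9, no position is given for the probe.

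The processed signal of Tfrc, the background-subtracted brightness of a spot, was an order of magnitude brighter in fetal than in adult liver. The mean over spots was 22077 on fetal array 1, 45138 on fetal array 2 and 20808 on fetal array 3. It was 3078 on adult array 1, 1584 on adult array 2 and 1527 on adult array 3. All fetal arrays lay above all adult arrays, and the dimmest fetal array was 6.76-fold brighter than the brightest adult array before any scaling. Fetal array 2 and adult array 1 were the bright arrays of their groups, and they were also bright as a whole. The 75th percentile of signal over all probe spots was 153.8 on fetal array 2 and 115.7 on adult array 1, against 70.3 to 84.2 on the other arrays.

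Scaling each array to this percentile brought the replicates together. On the log2 scale, as levels above the array's own 75th percentile, Tfrc stood at 8.21, 8.20 and 7.95 on fetal arrays 1 to 3. The adult levels on that scale were 4.73, 4.49 and 4.26 in the same order. The fetal mean was 8.12 ± 0.15 and the adult mean 4.50 ± 0.23 (SD, n = 3 each), a difference of 3.62 on the log2 scale, or 12.3-fold. The standard error of the difference in limma's fit across all tested probes was 0.25 and its 95% interval 3.03 to 4.22, or 8.14-fold to 18.6-fold. The number of arrays limits the precision of this interval.

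Fetal arrays 1 and 2 differed by 0.02 in level, less than the SD over their own spots, while fetal array 3 lay 0.25 below fetal array 2. The adult arrays were spaced more widely, by 0.24 from array 1 to array 2 and by 0.23 from array 2 to array 3. These steps exceeded the SD over the spots of any array, which ran from 0.024 to 0.034 on the log2 scale. Between the groups, the lowest fetal level exceeded the highest adult level by 3.21 on the log2 scale, or 9.28-fold, and the widest pair of arrays differed by 15.5-fold. Every fetal array above every adult array was also the pattern of 19.0% of the 22786 probes that were well above background on all 6 arrays.

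**Figure D1:**
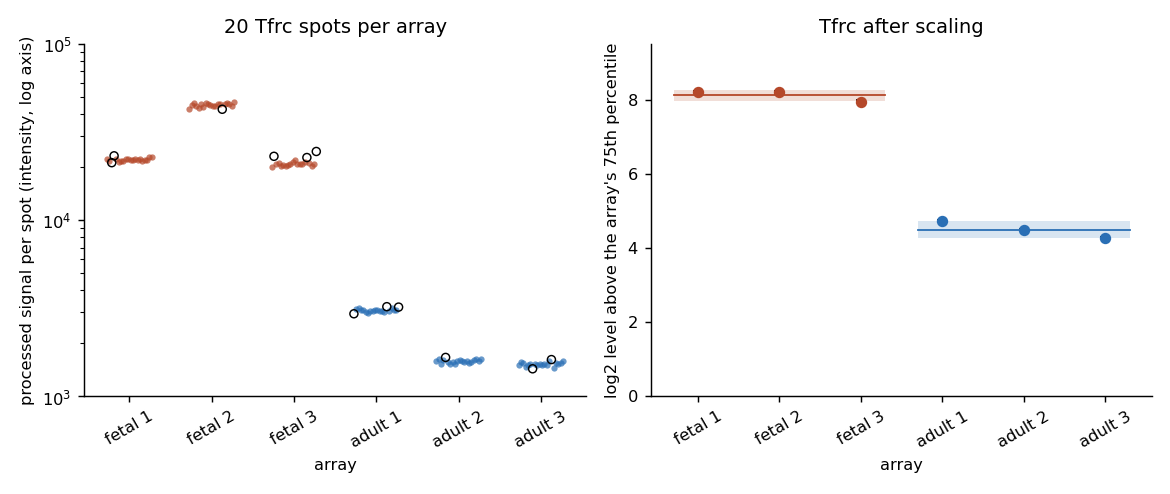
Left, processed signal (intensity, log axis) of the 20 Tfrc spots on each of 6 arrays, with open circles for spots the software flagged as outliers. Right, the scaled log2 level per array, with bars for the SD over spots (mostly hidden by the points) and bands for the group mean ± SD (n = 3); the fetal arrays lie between 7.95 and 8.21 and the adult arrays between 4.26 and 4.73.

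The spots of an array agreed closely with each other. After flagged spots were left out, 17 to 19 of the 20 spots remained on each array, 108 of 120 in all. Their coefficient of variation was 1.64% on fetal array 1, 2.34% on fetal array 2, 2.23% on fetal array 3, 1.72% on adult array 1, 2.31% on adult array 2 and 2.35% on adult array 3. The brightest spot of an array exceeded its dimmest by 1.06-fold to 1.096-fold. The Feature Extraction software assigned each spot an error of about 10% of its signal, which was more than the spread seen between spots of 1 array. Among the 14 other named genes, which were also printed at 20 places, the coefficient of variation over spots had a median of 2.23% and ran from 0.651% to 31.1%. Within an array, Tfrc ranked between 4 and 11 of the 15 genes, smallest first.

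The 20 spots were spread over the array, so the difference can be read at each place. They lay between rows 15 and 379 and columns 5 and 154 of the grid. At each of the 20 places taken alone, all unflagged fetal spots were above all unflagged adult spots. This followed from the array levels and is no separate support, since the spots of an array read the same RNA. With flagged spots left out, the fetal minus adult difference per place ran from 3.52 to 3.82 on the log2 scale, where a place with a flagged spot lacks that array in its mean. It ran from 3.595 to 3.666 over the 11 places with no flagged spot on any array, and from 3.57 to 3.69 over all 20 with flagged spots kept. With flagged spots kept, it was 3.63 over the 10 places nearer the left side of the grid and 3.62 over the 10 nearer the right. The 3 flagged spots of fetal array 3 were all bright, between 22684 and 24552, against 20068 to 21888 for the spots kept. No Tfrc spot was saturated, and all 20 were well above background on every array. The spots' median brightness was 792-fold, 1692-fold and 908-fold that of their local background on fetal arrays 1 to 3. On adult arrays 1 to 3 it was 124-fold, 66.8-fold and 57.5-fold that of the background, so the adult level was a measured one and not an upper limit.

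The rank of Tfrc within each array needs no scaling between arrays. Among the roughly equal numbers of probes with a value on each array (60876 to 60902), ordered from the brightest, Tfrc was probe 716 on fetal array 1, 550 on fetal array 2 and 695 on fetal array 3. It was probe 3495 on adult array 1, 3699 on adult array 2 and 3852 on adult array 3. Tfrc was thus within the brightest 0.903% to 1.18% of probes in fetal liver and within the brightest 5.74% to 6.33% in adult liver, and the groups did not overlap. The mean rank was 654 ± 90.4 in fetal and 3682 ± 179 in adult liver (SD, n = 3 each). Ranks compare probes of different binding strength, so they place a probe on an array and do not order genes by RNA amount.

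The difference of Tfrc stood in position 272, largest positive difference first, among the 22786 probes well above background on all 6 arrays, that is within the top 1.19%. The neighbours in that order had differences of 3.6237 and 3.6221 on the log2 scale, so the position itself is not sharply defined. Taken by size in either direction it stood in position 588, with 316 probes lower in fetal liver by at least as much. The median difference of these probes was -0.07 and the 99th percentile 3.83. Across the array, limma called 26.0% of 32330 tested probes at a Benjamini-Hochberg adjusted p under 0.05 and at least 2-fold, with 11.2% called higher in fetal liver. Large differences in both directions were thus common between the stages, and nothing is read from the call of a gene chosen for its difference.

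**Figure D2:**
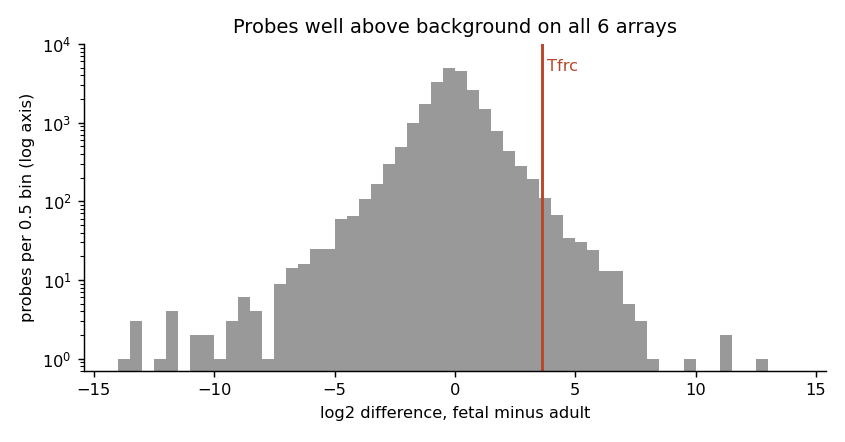
Number of probes (log axis) by log2 difference, fetal minus adult, for the 22786 probes well above background on all 6 arrays. The line marks Tfrc at 3.62, with 271 probes to its right.

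The replicates of Tfrc were close in fetal liver. The SD over fetal arrays, 0.15, was smaller than the median of 0.44 over the 22786 probes, and 10.9% of those probes had a smaller one. The SD over adult arrays, 0.23, lay nearer the median of 0.28, with 40.0% of probes below it. The probes compared were not matched to Tfrc for brightness or for the number of spots averaged. Across all tested probes with a value on every array, fetal array 1 correlated with fetal arrays 2 and 3 at 0.893 and 0.915, below the 0.983 between those 2 arrays. For Tfrc fetal array 1 did not stand apart, and without it the difference was 3.58. The arrays had been scanned in 2 runs, each holding arrays of both stages. Within run 1, with fetal arrays 2 and 3 and adult arrays 1 and 2, the difference was 3.46. In run 2, with fetal array 1 and adult array 3 alone, it was 3.95. With the scan run as a block the standard error was 0.24. The difference stayed at 3.62, as it had to, since each run held as many fetal as adult arrays.

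The 14 other named genes are mostly reference genes and were measured at 20 places each. Tfrc had the largest positive difference of the 15. Its level relative to each of the others, which cancels any scaling between arrays, was higher on every fetal than on every adult array for all 14. This relative difference ran from 0.83 on the log2 scale against Tuba1b to 6.37 against B2m, a subunit of the class I MHC, which was lower in fetal liver. The median over the 14 genes was 3.70. Since Tfrc was chosen for its difference, its higher relative level against all 14 is a description and not support. Relative to Gapdh, an enzyme of glycolysis, Tfrc was 13.2-fold higher in fetal liver, and relative to Ppia, a cyclophilin, 12.7-fold.

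**Figure D3:**
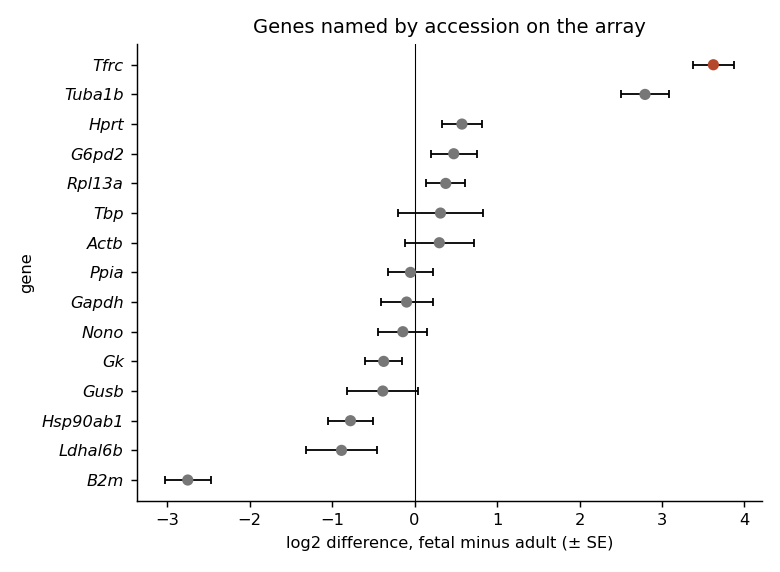
Log2 difference, fetal minus adult, with its standard error in limma's fit (n = 3 arrays per group), for the 15 genes named on the array. Tfrc is at the top at 3.62, Tuba1b follows at 2.79 and B2m is at the bottom at -2.75.

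Likeness to Tfrc was measured as the root mean square difference between 2 log2 profiles over the 6 arrays, each centred on its own mean, so that 0 is an identical pattern. The named gene most like Tfrc was Tuba1b, an alpha-tubulin of the microtubules, at 0.47. Its levels on arrays 1 to 3 were 10.69, 9.95 and 10.12 before birth and 7.54, 7.62 and 7.22 in the adult. In Tuba1b fetal array 1 lay above the other fetal arrays, whereas in Tfrc fetal arrays 1 and 2 were level. Hprt, an enzyme of purine salvage, came next at 1.54, and G6pd2, a glucose-6-phosphate dehydrogenase gene, at 1.59. Their differences between the stages were 0.57 and 0.47 on the log2 scale, with standard errors of 0.25 and 0.28. The likeness of these genes to Tfrc is thus at most a shared direction. For G6pd2 the stages nearly met, with fetal array 3 at -1.50 and adult array 3 at -1.53.

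Closer patterns were found among probes known by number alone. The probe ASMM10P032218 lay at a distance of 0.042 from Tfrc, ASMM10P051733 at 0.074 and ASMM10P040700 at 0.0996. Their differences between the stages were 3.68, 3.75 and 3.50 on the log2 scale. Of the 22785 probes compared, 31 lay within 0.25 and the median distance was 1.90. These probes were picked from many for their likeness, and the files pair none of them with a gene.

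**Figure D4:**
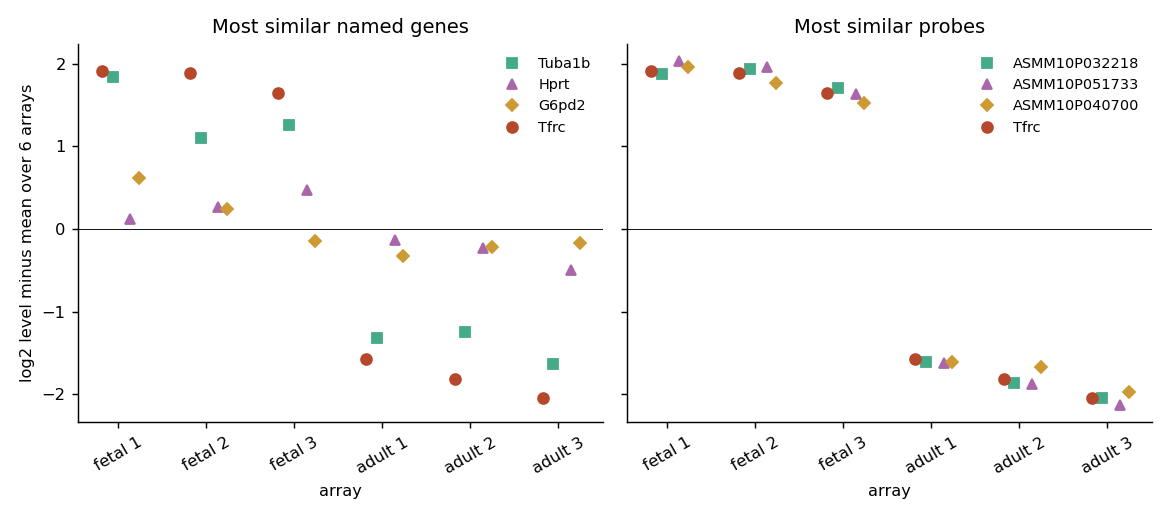
Log2 level minus the mean over 6 arrays, per array, for Tfrc and the named genes nearest to it (left) and for Tfrc and the nearest probes (right). Points are arrays; Tuba1b follows Tfrc with a smaller step, Hprt and G6pd2 stay close to 0, and the 3 probes lie close to Tfrc on every array.

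The rest of the iron pathway could not be followed. Of 28 genes of iron uptake, storage, export and regulation, among them those for transferrin, ferritin, ferroportin and hepcidin, 1 was paired with a probe, and that was Tfrc. The same held for 20 genes of red cell precursors. None of 12 hepatocyte genes, 10 genes of dividing cells or 22 genes of other liver and blood cells was paired with a probe. The tissue labels were therefore not checked against marker genes here, and the share of red cell precursors in the samples was not measured. The difference between the Gapdh control probes, 5′ minus 3′, ran from -2.95 to -2.33 on the log2 scale on fetal arrays. On adult arrays it ran from -3.39 to -2.41, and these ranges overlapped. Because the RNA was amplified with random primers and probes differ in binding strength, the Gapdh difference is not a clear measure of RNA length. The part of RNA length in the Tfrc difference was not tested.

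**Figure D5:**
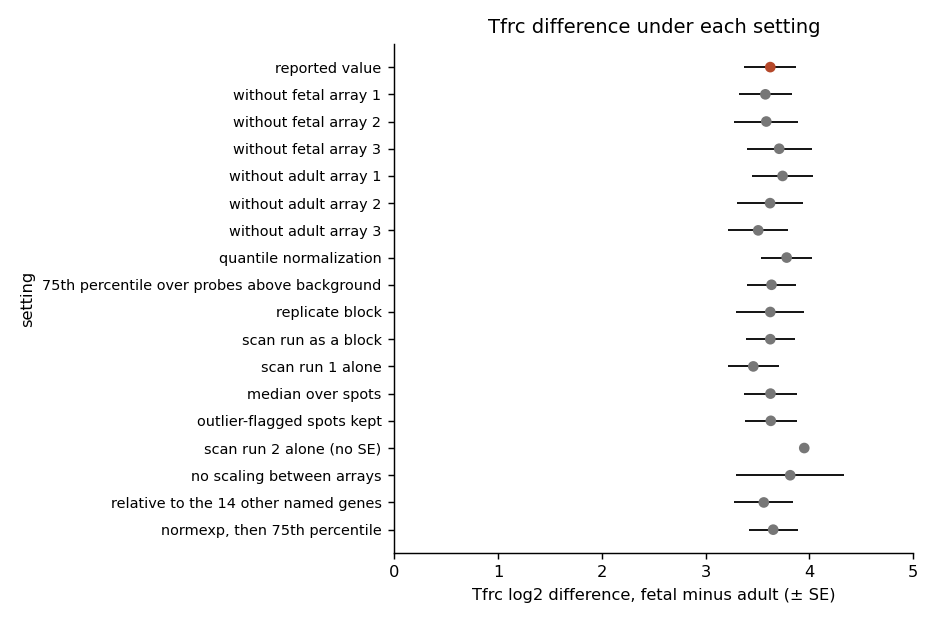
Log2 difference of Tfrc, fetal minus adult, with its standard error, as reported (top) and under 17 other settings. The values lie between 3.46 (scan run 1 alone) and 3.95 (scan run 2 alone, 1 array per group, no standard error).

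The difference of Tfrc did not hinge on 1 array or on the scaling. With 1 array left out at a time it ran from 3.51 to 3.74 on the log2 scale. It was 3.78 after quantile normalization, 3.81 without scaling between arrays and 3.56 relative to the median of the 14 other named genes. The standard error without scaling was 0.52, against 0.25 with it.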

How the data were processed

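The 6 scans were processed in Agilent Feature Extraction 11.0.1.1, per the submitters' processing notes and the file headers. Each deposited file holds 62939 spots as linear intensity. The processed signal is background-subtracted by the authors' software, raised to a floor where low, and not scaled between arrays, per the file headers. The flags for background, saturation and outliers, also deposited, are 0 or 1 per spot. The authors' deposited log2 table of 17307 probes holds no row for Tfrc and was not used for values.

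Left out were 1439 control spots, the 15 negative-control probes with their 300 spots, and outlier-flagged spots, which left 60915 probes. Levels are log2 processed signal minus the array's 75th percentile over probe spots, averaged over the spots of a probe. Probes that at least 3 of 6 arrays showed well above background were fitted with limma 3.58.1 in R 4.3.3 (lmFit, eBayes), with Benjamini-Hochberg adjustment; a few lacked a value on 1 array and were fitted on the rest. The fit was tested on simulated data. The groups come from the sample titles. The p-values set a probe's difference against the spread between these samples, which eBayes moderates across the tested probes, and they reach no further than these samples. From 45.0% to 60.6% of probes were well above background on an array.

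The gene and the gene lists were chosen with earlier results of these data known. By the naming rule, the 3 named genes and the 3 probes nearest to Tfrc in profile were named; genes given as reference points were chosen after their values were seen. Alternatives changed the scaling, background correction, filter, averaging of spots, flagged spots, scan run, array weights and replicate block, or left out 1 array.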

Additional observations from a re-analysis of the deposited data

How the results depend on the processing

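The Tfrc difference kept its direction under all 17 alternatives, and in 16 of them it stayed within 0.20 on the log2 scale, the SD between replicates. Scan run 2 alone gave 3.95. The replicate block and the scan run block, both balanced over the stages, could not move the difference. Leaving out an array could not reverse it, since all fetal arrays lay above all adult arrays. The 3 alternatives for the rank on an array moved the fetal median rank of 695 to between 685 and 700 and the adult one of 3699 to between 3693 and 3710. The position of the rise, 272, went to 481 in scan run 2 alone and to 152 with normexp background correction. It was 791 among the 32330 probes above background on at least 3 arrays, or within the top 2.45%. With no filter on dim probes the position was 803 among 60915, or within the top 1.32%, against 1.19% for the reported position. With 1 array left out it ran from 209 to 377. The count of probes called by limma, 8415, was 4541 with normexp and 5209 among probes that all 6 arrays showed above background, where fewer were tested. With array weights it was 11669, the highest of all settings, and the Tfrc difference was then 3.49 (standard error 0.147). With 1 array left out the count ran from 5308 to 10019, the lowest values being 5308 without adult array 2 and 5393 without adult array 3. Fewer arrays did not always lower the count, which was 10019 when fetal array 1 was dropped and 8753 in scan run 1 alone. The cause of the shifts in position and count was not tested.

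With the replicate block the Tfrc difference was 3.62 (standard error 0.33) and limma called 4502 probes. The labels state no pairing of samples by number. Deviations of same-numbered arrays from their group means correlated at -0.53 to -0.31 across probes, and 0 of 6 arrays correlated best with its own number. Arrays also differed in brightness and scan run, so these correlations cannot exclude a pairing. The normexp alternative and 1 of the rank alternatives used the spots' median signal, chosen after seeing the data, and were not run on the mean signal. The authors' table gave no value for Tfrc. No limit of depth touched Tfrc, since all its spots were well above background.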
